A study of Mus musculus with 6 samples.

Results

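Mitochondrial ribosomal protein genes, chosen by symbol (Mrpl or Mrps followed by a digit, pseudogenes left out), were 78 of the 48432 genes in the deposited table. There were 49 Mrpl genes, named for the large subunit (L), and 29 Mrps genes, named for the small subunit (S). The liver of 10-week-old Albumin-Cre mice (Ctl, 3 libraries) was compared with that of mice carrying a liver-specific knockout of Klf15 (Li-KO, 3 libraries), a Kruppel-like transcription factor. The family was selected with the result of this same contrast already known, so the counts and medians over its members describe these libraries and no test was made of the family. The labels give no sex, no deleted exon, and no statement that each library came from its own mouse, so p-values measure the spread between libraries. The albumin promoter drives Cre in hepatocytes, and other liver cells keep Klf15.

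Mitochondria carry their own ribosome, which translates the few proteins encoded in mitochondrial DNA, all of them subunits of the oxidative phosphorylation system. Its ribosomal RNAs are made inside the organelle, whereas every one of its proteins is encoded in the nucleus, made in the cytoplasm and imported. Part of these proteins descend from the bacterial ribosome, and the others were added during the evolution of mitochondria. The genes are expressed in all tissues, and the liver, rich in mitochondria, uses them to keep up its respiratory chain.

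Fragments were counted per library, with totals from 30132499 to 42782318, and are given below as CPM, TMM-scaled fragment counts relative to the library total, which sets aside differences in depth and composition. Klf15 itself had Ctl CPM of 345, 174 and 196 against Li-KO CPM of 54.3, 41.6 and 51.8, here and below in the order of replicates 0, 1 and 2 of a group. It was lower in every Li-KO library than in any Ctl library (log2 fold change -2.28 ± 0.26 SE, edgeR adjusted p = 0.00275). Summed CPM of 9 of the 12 hepatocyte markers listed (Cuffdiff skipped the other 3) ran from 27400 to 38000 in Ctl and from 32300 to 37700 in Li-KO. Markers of erythroid cells summed to 741 to 804 CPM in Ctl and to 297 to 590 CPM in Li-KO, with 0 of 6 past the threshold. In whole liver, fewer cells of a type and less RNA per cell cannot be told apart.

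Of the 78 genes, 76 passed the filter on low counts. In Li-KO, 19 of these 76 (25%) were higher and 0 were lower at an edgeR adjusted p under 0.05, beside 6.11% of all 16533 genes tested that were higher and 5.9% that were lower. By DESeq2 27 were higher and 0 lower, beside 1603 higher and 1555 lower among the same 16533 genes. The log2 fold change was above 0 for 73 of the 76 and ran from -0.27 to 0.88, with a median of 0.36 (a fold of 1.28) and the middle 50% of genes between 0.21 and 0.48. The median over all genes tested was -0.01. For 52 of the 76 every Li-KO library lay above every Ctl library, beside 17.4% of all genes, and for 1 (Mrps27) every Li-KO library lay below every Ctl library, beside 17.8%. The 19 genes past the threshold rose by small amounts, from 1.36-fold to 1.71-fold, and each had between 537 and 4254 fragments in a library.

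The calls depended on which library was left out. Without Ctl replicate 1, and likewise without Li-KO replicate 1, 0 of the 19 stayed past the threshold, and without Ctl replicate 2 there were 2. Over all genes the number higher fell as well, from 1010 to 198 without Ctl replicate 1 and to 226 without Li-KO replicate 1. All 19 kept a log2 fold change above 0 in each of the 6 fits that left out 1 library, as did 66 of the 76. For the 19 this was largely fixed in advance, since every Li-KO library lay above every Ctl library in each of them. The same holds for all 52 members separated in this way, so the kept sign is no added evidence.

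**Figure D1:**
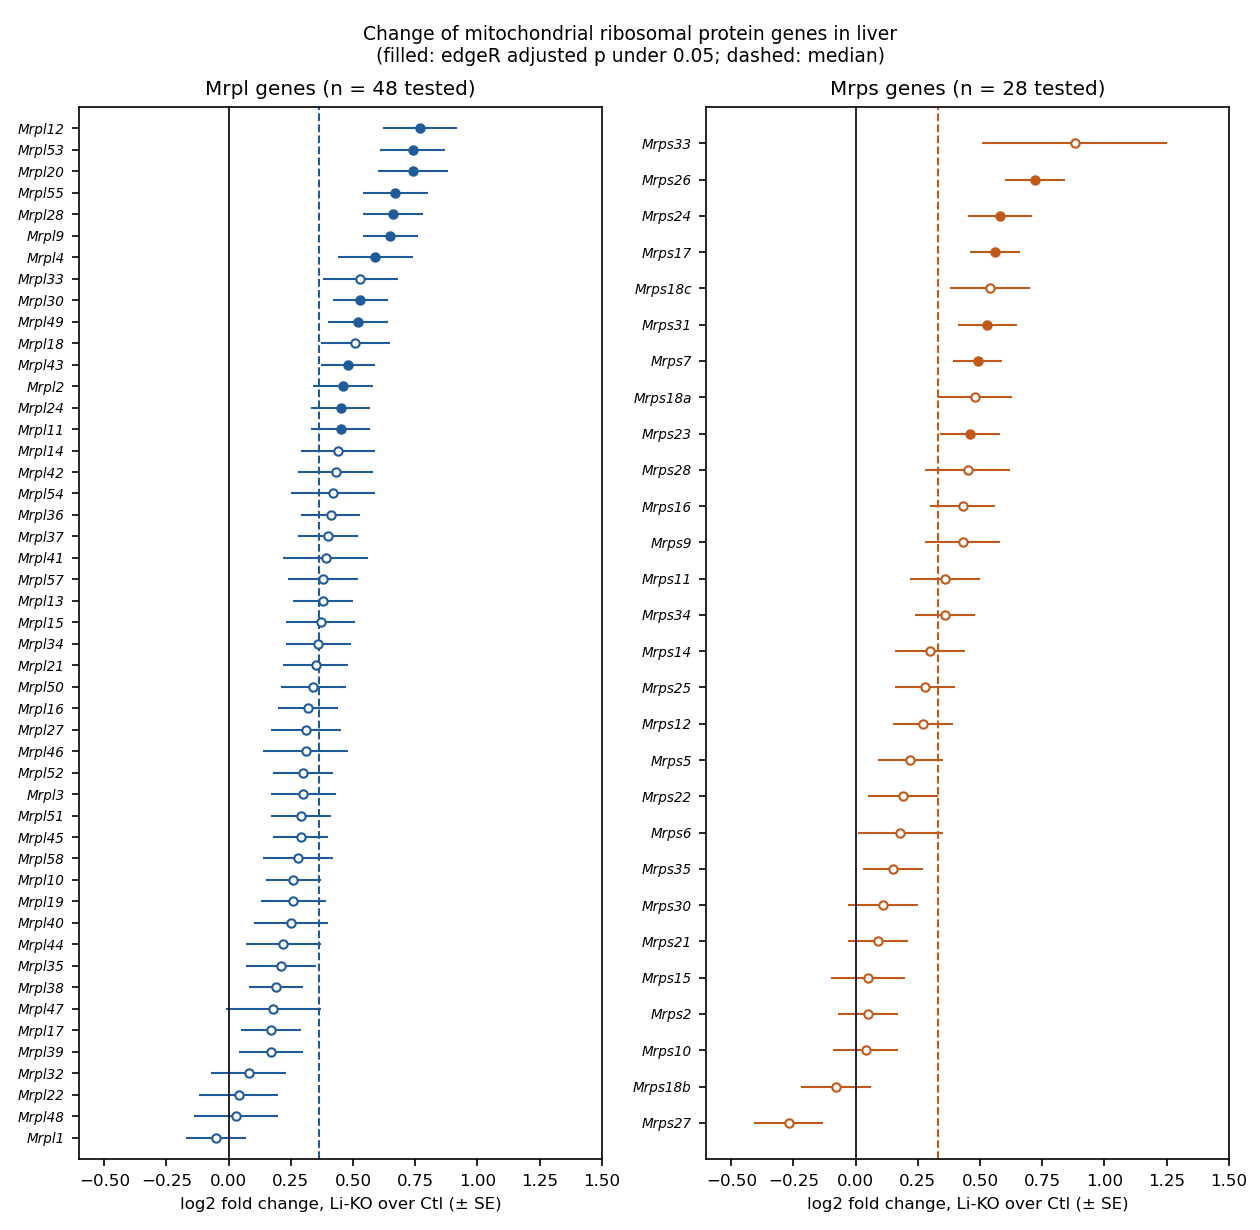
Log2 fold change (Li-KO over Ctl, horizontal axis) with its standard error for the 48 Mrpl and 28 Mrps genes tested, ordered by size; filled points passed an edgeR adjusted p under 0.05 and the dashed line is the median of the panel. Of the 76 points 73 lie right of 0, and Mrps27 is the lowest.

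The promoters of members past the threshold are shown here to let a reader see the motifs counted below, which factors known to regulate mitochondrial genes can bind. Each stretch is 100 bases from the RefSeq promoter table (build GRCm38.p6, the assembly called mm10), 5′ to 3′ along the gene, ending at or before the RefSeq start, with at most 30 bases inside a GENCODE M21 exon. The members with the smallest p that held a searched motif were taken, and capitals mark the motif. Mrps26 lies at chr2:130563657-130563756, Mrpl9 at chr3:94443236-94443335, Mrpl53 at chr6:83108970-83109069 and Mrps17 at chr5:129715397-129715496, all on the plus strand.
Mrps26: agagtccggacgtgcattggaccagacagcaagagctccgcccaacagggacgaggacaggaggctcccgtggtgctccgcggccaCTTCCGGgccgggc
Mrpl9: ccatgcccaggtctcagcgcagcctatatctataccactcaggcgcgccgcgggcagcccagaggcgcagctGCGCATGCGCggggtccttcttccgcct
Mrpl53: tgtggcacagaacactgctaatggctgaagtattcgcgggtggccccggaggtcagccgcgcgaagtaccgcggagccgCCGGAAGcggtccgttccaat
Mrps17: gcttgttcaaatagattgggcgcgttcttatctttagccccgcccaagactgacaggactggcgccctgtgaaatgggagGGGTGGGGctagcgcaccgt

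The capitals in Mrps26 and Mrpl53 are the core read by ETS factors such as GABP, on the other strand in Mrps26. Those in Mrpl9 are the palindrome read by NRF1, matched on both strands, and those in Mrps17 are a CACCC box on the other strand, the kind of GC-rich element that Kruppel-like factors bind. They start 14, 28, 59 and 20 bases before the RefSeq start in Mrps26, Mrpl9, Mrpl53 and Mrps17. A match describes the letters only and is no evidence of binding.

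Over the family, 69 of the 78 members had a promoter in the table, and each was searched on both strands from 250 bases before to 50 bases after the start. The ETS core CCGGAAG was present in 26 of 69 members (37.7%), beside 19.1% of protein-coding genes tested and 8.86% of all 32851 promoters. The YY1 motif AAGATGGC was present in 12 (17.4%), beside 5.09% and 2.75%. The NRF1 motif GCGCATGCG was present in 7 (10.1%), beside 3.93% and 1.75%. The CACCC box CCCCACCC was present in 8 (11.6%), beside 14.7% and 9.99%, and the ESRRA motif TCAAGGTCA in 0, beside 0.338% and 0.423%. No member had overlapping matches of different motifs (0 of 69). Among the 18 members past the threshold with a promoter in the table, the ETS core was in 4, the CACCC box in 4, the YY1 motif in 3 and the NRF1 motif in 1. The median GC content was 58.7% for the members' promoters and 60.3% for those of protein-coding genes tested.

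Both subunits had genes past the threshold as higher and none as lower, and the difference between their shares was not tested. Of 48 Mrpl genes tested, 13 (27.1%) were higher and 0 lower, with a median log2 fold change of 0.37. Of 28 Mrps genes, 6 (21.4%) were higher and 0 lower, with a median of 0.33. Over all genes tested, 6.11% were higher and 5.9% lower. The log2 fold change was below 0 for 1 Mrpl gene and 2 Mrps genes. Summed over the Mrpl genes, the Ctl libraries reached 1502, 1415 and 1531 CPM against 1939, 1982 and 1925 CPM for Li-KO. Summed over the Mrps genes, they reached 712.9, 690.7 and 753.0 CPM against 889.9, 901.9 and 898.2 CPM. Both sums were higher in every Li-KO library than in any Ctl library, by 1.31-fold for the large and 1.25-fold for the small subunit.

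The ratio of the large to the small subunit sum was 2.11, 2.05 and 2.03 over Ctl libraries against 2.18, 2.20 and 2.14 over Li-KO libraries, a mean of 2.06 ± 0.04 (SD, n = 3) against 2.17 ± 0.03. All Li-KO ratios lay above the Ctl ratios, by 1.05-fold in the mean. On the mean log2 CPM over genes, large exceeded small by 0.348, 0.349 and 0.357 over Ctl libraries against 0.424, 0.424 and 0.363 over Li-KO libraries, a shift of 0.05. This shift was larger, 0.23, when the median of log2(FPKM + 0.1) was used in place of the mean of log2 CPM, with 0.263, 0.212 and 0.205 over Ctl libraries against 0.605, 0.389 and 0.369 over Li-KO libraries. With sums, means and medians by symbol the sign of the shift was the same, and its size depended on the summary. The cause was not tested.

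**Figure D2:**
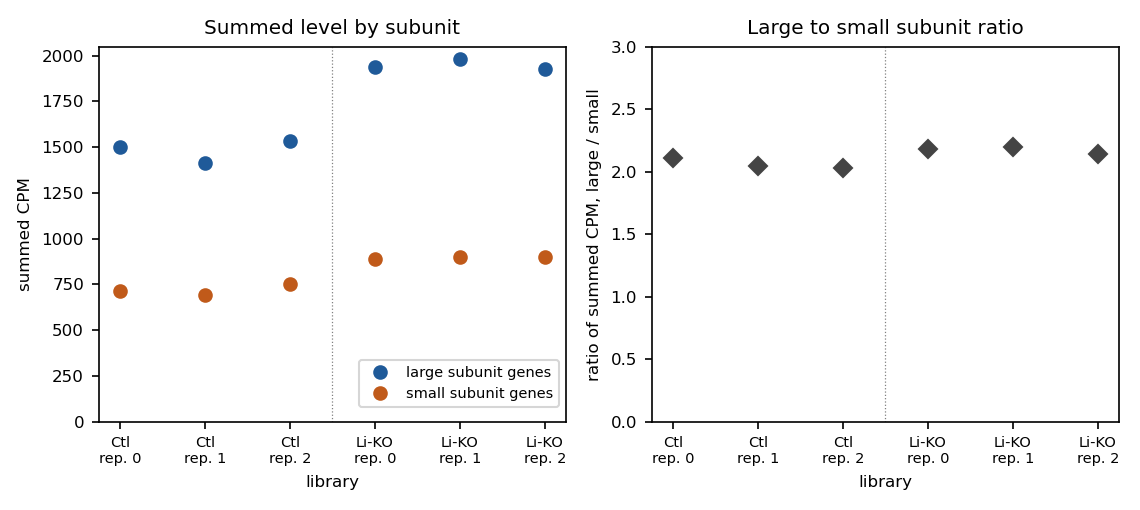
Left, CPM summed over the large subunit genes (blue) and small subunit genes (orange) in each of the 6 libraries (horizontal axis, the dotted line separates Ctl from Li-KO); right, the ratio of the sums. Both sums step up in Li-KO, and the ratio lies between 2.03 and 2.11 in Ctl and between 2.14 and 2.20 in Li-KO.

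Symbols and structure disagree for 3 genes. Mrps18a and Mrps30 encode proteins that sit in the large subunit of the mammalian mitoribosome in spite of their names, and the Mrps36 product is known as a component of the 2-oxoglutarate dehydrogenase complex. Placed by structure, 13 of 50 large subunit genes and 6 of 26 small subunit genes were higher, beside 6.11% of all genes. The medians were again 0.37 and 0.33. On mean log2 CPM, large then exceeded small by 0.335, 0.355 and 0.361 in Ctl against 0.423, 0.419 and 0.347 in Li-KO. The shift was again 0.05, but the groups overlapped, with Li-KO replicate 2 inside the Ctl range. Mrps18a had Ctl CPM of 24.9, 24.8 and 27.1 against Li-KO CPM of 42.5, 33.4 and 31.3, with no overlap but an adjusted p of 0.0658 in edgeR. Mrps30 had Ctl CPM of 19.4, 21.8 and 23.0 against Li-KO CPM of 20.1, 25.6 and 23.4, and the groups overlapped.

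Within the large subunit, a flexible stalk recruits translation factors to the ribosome, and Mrpl12 builds its mobile part while Mrpl11 and Mrpl10 form its base. Mrpl12 (chromosome 11, 120484613 to 120489065) had Ctl CPM of 63.6, 50.9 and 51.4 against Li-KO CPM of 79.5, 101 and 103. Mrpl11 had Ctl CPM of 21.7, 19.3 and 21.1 against Li-KO CPM of 26.3, 29.9 and 28.4. For both, every Li-KO library was above every Ctl library, with Li-KO replicate 0 the lowest of its group. The log2 fold change was 0.77 ± 0.15 for Mrpl12 (edgeR adjusted p = 0.0165), the largest among the 19, and 0.45 ± 0.12 for Mrpl11 (adjusted p = 0.0497), next to the threshold and past it in none of the fits without 1 library. Mrpl10 had 0.26 ± 0.11 and did not pass (adjusted p = 0.157).

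The sites hold few genes each, and no site was tested as a set. Around the peptidyl transferase centre, where the peptide bond is formed, 1 of 4 genes was higher, beside 6.11% of all genes tested. This gene was Mrpl2, whose product packs against the catalytic RNA. It had Ctl CPM of 41.2, 38.9 and 39.1 against Li-KO CPM of 59.0, 56.3 and 48.5 (log2 fold change 0.46 ± 0.12, adjusted p = 0.0427 in edgeR). Mrpl3, Mrpl16 and Mrpl27 had log2 fold changes of 0.30, 0.32 and 0.31 and did not pass. In each, every Li-KO library lay above every Ctl library, as for 17.4% of all genes. At the rim of the exit tunnel, which lies against the inner membrane, 1 of 7 genes tested was higher (6.11% over all genes), with a median of 0.18. It was Mrpl24, with Ctl CPM of 67.9, 56.9 and 60.7 against Li-KO CPM of 78.1, 89.0 and 87.2 (log2 fold change 0.45 ± 0.12, adjusted p = 0.0424 in edgeR). Mrpl4, whose protein lines the tunnel wall deeper inside, had Ctl CPM of 24.2, 27.9 and 23.4 against Li-KO CPM of 44.4, 34.8 and 34.7. It had a log2 fold change of 0.59 ± 0.15 (adjusted p = 0.0365 in edgeR), with Li-KO replicate 0 well above the other libraries.

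The central protuberance, which faces the small subunit and the tRNAs, had 1 of 7 genes higher (6.11% over all genes) and a median of 0.28. Mrpl55 was the gene, with Ctl CPM of 15.6, 15.4 and 16.1 against Li-KO CPM of 27.0, 25.3 and 22.9. The Ctl libraries differed by less than 1 CPM and every Li-KO library was above them (log2 fold change 0.67 ± 0.13, edgeR adjusted p = 0.0152). At the other end of the same site, Mrpl48 had Ctl CPM of 11, 9.28 and 10.2 against Li-KO CPM of 9.15, 9.89 and 12.1, a log2 fold change of 0.03 ± 0.17 (adjusted p = 0.938), and the groups overlapped.

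Other large subunit proteins with bacterial relatives that rose were Mrpl9, Mrpl28, Mrpl20 and Mrpl30. Mrpl9 (chromosome 3, 94443318 to 94451130), with the smallest p of the subunit, had Ctl CPM of 39.6, 35.6 and 38.7 against Li-KO CPM of 61.6, 60.0 and 57.2. Mrpl28 had Ctl CPM of 37.3, 33.0 and 35.0 against Li-KO CPM of 59.3, 56.9 and 50.6. Mrpl20, whose bacterial relative binds the ribosomal RNA early in assembly, had Ctl CPM of 38.3, 29.5 and 32.6 against Li-KO CPM of 61.4, 53.1 and 53.5. In all 3 the lowest Li-KO library exceeded the highest Ctl library by more than 10 CPM. Their log2 fold changes were 0.65 ± 0.11, 0.66 ± 0.12 and 0.74 ± 0.14 for Mrpl9, Mrpl28 and Mrpl20, with edgeR adjusted p of 0.0112, 0.0139 and 0.0150. Mrpl30 had Ctl CPM of 41.6, 40 and 40.1 against Li-KO CPM of 59.2, 60.8 and 55.9, again apart (0.53 ± 0.11, adjusted p = 0.0190).

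Proteins found only in mitochondrial ribosomes were represented by Mrpl53, Mrpl43 and Mrpl49 in the large subunit. Mrpl53 (chromosome 6, 83109040 to 83109939) had Ctl CPM of 25.3, 20.2 and 21.4 against Li-KO CPM of 38.4, 38.0 and 35.1. Mrpl43 had Ctl CPM of 28.9, 26.3 and 28.6 against Li-KO CPM of 40.2, 39.9 and 36.9. Mrpl49 had Ctl CPM of 32.6, 33.0 and 30.7 against Li-KO CPM of 43.8, 52.1 and 42.6. The groups were apart in each, with Li-KO replicate 1 the highest for Mrpl49. The log2 fold changes were 0.74 ± 0.13, 0.48 ± 0.11 and 0.52 ± 0.12 for Mrpl53, Mrpl43 and Mrpl49, with edgeR adjusted p of 0.0137, 0.0325 and 0.0329.

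In the small subunit, the head and the mRNA entry held 3 of the 6 genes that rose. Mrps7 binds the ribosomal RNA of the head and had Ctl CPM of 67.4, 61.7 and 66.5 against Li-KO CPM of 95.5, 91.0 and 88.6. Mrps31, a mitochondria-specific head protein, had Ctl CPM of 45.3, 40.9 and 41.2 against Li-KO CPM of 66.8, 55.8 and 61.4. Mrps24, the relative of the bacterial protein at the mRNA entry, had Ctl CPM of 28.9, 24.6 and 29.7 against Li-KO CPM of 38.6, 41.7 and 43.7. None of these 3 genes had a Li-KO library within the Ctl range. The log2 fold changes were 0.49 ± 0.10, 0.53 ± 0.12 and 0.58 ± 0.13 for Mrps7, Mrps31 and Mrps24, with edgeR adjusted p of 0.0231, 0.0279 and 0.0263. Across the sites, 2 of 7 head genes were higher (median 0.43), beside 6.11% of all genes. Of the decoding centre and mRNA channel, 1 of 4 genes was higher (median 0.25).

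Mrps26 (chromosome 2, 130563742 to 130568695, plus strand), a mitochondria-specific protein, had the smallest p of the whole family. It had Ctl CPM of 15.7, 14.5 and 16.6 against Li-KO CPM of 25.8, 26.1 and 25.3, a log2 fold change of 0.72 ± 0.12 (edgeR adjusted p = 0.0111). The Li-KO libraries were within 1 CPM of each other and all above the Ctl libraries. Mrps17, a relative of a bacterial protein of the small subunit body, had Ctl CPM of 44.0, 43.2 and 45.6 against Li-KO CPM of 64.1, 67.5 and 64.2 (0.56 ± 0.10, adjusted p = 0.0152). Mrps23, specific to mitochondria, had Ctl CPM of 24.6, 25.2 and 28.2 against Li-KO CPM of 36.5, 36.3 and 34.6 (0.46 ± 0.12, adjusted p = 0.0398). Both were apart between groups.

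**Figure D3:**
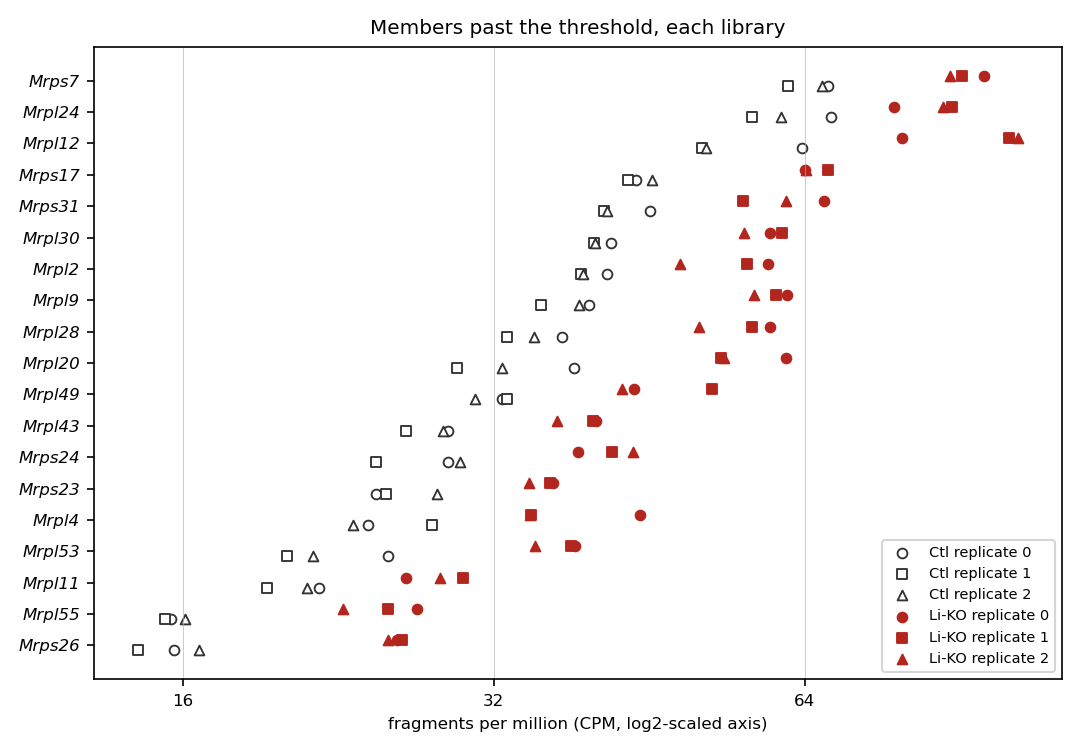
Level in CPM (horizontal axis, log2-scaled) of the 19 genes with an edgeR adjusted p under 0.05 in each of the 3 Ctl libraries (open) and 3 Li-KO libraries (filled), with the marker shape giving the replicate number. In every gene the filled points lie right of the open ones, and Mrpl12 has the widest spread within Li-KO.

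The other 57 genes tested did not pass, and in 23 of the 76 the groups overlapped. The 3 with a log2 fold change below 0 were Mrps27, Mrpl1 and Mrps18b. Mrps27, a pentatricopeptide repeat protein of the small subunit, had Ctl CPM of 35.0, 30.9 and 34.5 against Li-KO CPM of 23.7, 29.5 and 29.8, and every Li-KO library was below the Ctl libraries. Its log2 fold change of -0.27 ± 0.14 did not pass (edgeR adjusted p = 0.219). Mrpl1, the relative of the bacterial protein of the L1 stalk where the empty tRNA leaves, had Ctl CPM of 37.6, 37.5 and 37.7 against Li-KO CPM of 32.9, 35.6 and 40.6 (-0.05 ± 0.12), and the groups overlapped. Mrps18b had Ctl CPM of 15.3, 17.2 and 18.9 against Li-KO CPM of 16.3, 17.0 and 15.2 (-0.08 ± 0.14), also overlapping. It belongs to the S18 family, 3 relatives of 1 bacterial protein, of which Mrps18a and Mrps18c had log2 fold changes of 0.48 and 0.54 and none passed (adjusted p for Mrps18c 0.0564 in edgeR).

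Mrps33, a small protein of the head, had the largest log2 fold change of the family and the largest SE. It had Ctl CPM of 2.25, 1.26 and 0.928 against Li-KO CPM of 2.51, 2.5 and 3.16, that is 94, 47 and 35 fragments against 78, 78 and 130. The log2 fold change was 0.88 ± 0.37 and did not pass (edgeR adjusted p = 0.161). The processed pseudogene Gm5776, 99.7% identical to the Mrps33 coding sequence, was counted at 114, 96 and 125 fragments for Ctl against 93, 98 and 151 for Li-KO, more than Mrps33 itself in each of the 6 libraries. With the fragments of such copies added to the gene, the log2 fold change of Mrps33 was 0.46 (adjusted p = 0.180).

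Mrpl23 and Mrps36 failed the filter on low counts, and both have near-identical copies. Mrpl23, a protein of the exit tunnel rim, was counted at 3, 4 and 3 fragments for Ctl against 0, 3 and 3 for Li-KO. Its pseudogene Mrpl23-ps1, 100% identical over 81.6% of the coding sequence, had 323, 279 and 303 fragments for Ctl against 379, 276 and 348 for Li-KO. The level of Mrpl23 is uncertain, since the counting could split fragments of the shared sequence between the gene and its copy, which was not tested. Mrps36 was counted at 1, 1 and 2 fragments for Ctl against 14, 9 and 9 for Li-KO, and 8 copies match it. In all, 23 members had 39 copies at 90% identity or more over at least 70% of the coding sequence. Among the 55 members without a copy, 16 were higher and 0 lower (6.11% and 5.9% over all genes), with a median log2 fold change of 0.36. Among the 21 tested members with one, 3 were higher, with a median of 0.31. These were Mrps26, Mrpl12 and Mrpl30. Mrpl12 and Mrpl30 stayed past the threshold with the fragments of their copies added, and the copy of Mrps26 has no values in the table.

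Overlapping genes are a further limit. In the annotation 42 of the 78 members overlap another gene, 36 of them on the opposite strand and 13 on the same strand, some on both. Of the 19 that rose, 10 are among the 42. No source used here gives the strand setting of the counting, so fragments of pairs on opposite strands may have been shared. Fragments of pairs on the same strand may have been shared under any strand setting. Of the 34 tested members that overlap no gene, 9 were higher and 0 lower (6.11% and 5.9% over all genes), with a median log2 fold change of 0.35.

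By descent, 13 of 45 genes with bacterial relatives were higher, with a median log2 fold change of 0.37. Of the 31 other genes 6 were higher, with a median of 0.31. Over all genes tested, 6.11% were higher. The classes follow the universal names of ribosomal proteins, which mark Mrps18c as the counterpart of the bacterial protein and set its relatives Mrps18a and Mrps18b among the others. The 3 genes below 0 were Mrpl1, which has a bacterial relative, and Mrps27 and Mrps18b of the other class.

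Per length, the members were moderately expressed. FPKM, which relate fragments to transcript length and library depth, were deposited per library and allow levels to be compared between genes, though they depend on the transcript lengths assumed. Mean Ctl FPKM over the 76 genes tested ran from 1.25 to 84.4 with a median of 19.6, and 53 of the 76 lay between 10 and 40. The medians were 20.5 for the large and 18 for the small subunit. The highest levels in the large subunit were Mrpl52 at 84.8, 80.6 and 87.8 FPKM in Ctl, Mrpl30 at 60.7, 56.6 and 55.5, Mrpl34 at 56.1, 44.1 and 52.4, and Mrpl20 at 54.2, 41.3 and 44.9. In the small subunit Mrps21 led at 75.1, 79.1 and 81.6 FPKM, ahead of Mrps12 (41.7, 38.4 and 44.4), Mrps16 (38.8, 33.7 and 37.7) and Mrps34 (31.6, 27.1 and 27.1). Mrps21 was apart from the next gene, Mrpl30, whereas it overlapped with Mrpl52.

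At the low end were Mrpl48 (5.64, 4.73 and 5.37 FPKM), Mrpl47 (3.18, 3.41 and 4.03), Mrpl19 (2.87, 3.31 and 3.23), Mrps26 (2.74, 2.57 and 3), Mrps25 (2.08, 2.13 and 2.30) and Mrps33 (1.88, 1.12 and 0.743), then Mrpl23 and Mrps36 near 0. Mrpl23 had 0.0912, 0.142 and 0.0980 FPKM and Mrps36 0.0440, 0.0472 and 0.0888. Mrps26, with the smallest p for the change, was thus among the lowest by level, and it reached 4.43 ± 0.103 FPKM (SD, n = 3) in Li-KO from 2.77 ± 0.215 in Ctl. For 69 of the 77 neighbouring pairs in the order of Ctl levels, the Ctl ranges overlapped, so most of the order is not resolved.

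Between libraries of a group the members varied less than all genes tested. The median SD of log2 CPM was 0.12 over the Ctl libraries, beside 0.21 for all genes tested, and 0.11 over the Li-KO libraries, beside 0.26. All genes tested include genes with counts near the filter, whereas the members had a median of 25.5 CPM in Ctl. Genes of like level were not compared, so the part of level in this difference was not tested. Ctl replicate 1 was the lowest of the 6 libraries for 43 of the 76 genes. Across genes, log2 fold change and Ctl FPKM had a Spearman correlation of 0.37 over the 76 members, which share the same 6 libraries and are not independent replicates.

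Gene length moved with the contrast. The median exonic length of the members was 2394 bases, beside 4457 for the 13269 protein-coding genes tested. Among the 3319 protein-coding genes in the shortest length class (up to 2805 bases, the lowest 25%), 11.9% were higher and 4.43% lower, with a median log2 fold change of 0.17. In the longest class, 2.65% were higher and 9.67% lower, with a median of -0.14. The short class stood at -0.08, -0.11 and -0.03 over Ctl libraries against 0.11, 0.09 and 0.08 over Li-KO libraries, as the median log2 deviation from each gene's mean over the 6 libraries. The members stood at -0.18, -0.24 and -0.09 over Ctl libraries against 0.17, 0.20 and 0.17 over Li-KO libraries on the same scale. Short genes therefore moved in the same direction as the members, by a smaller amount. The Spearman correlation of log2 fold change and length was -0.28 over the 76 members and -0.22 over the protein-coding genes. The part of length in the members' shift was not tested.

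**Figure D4:**
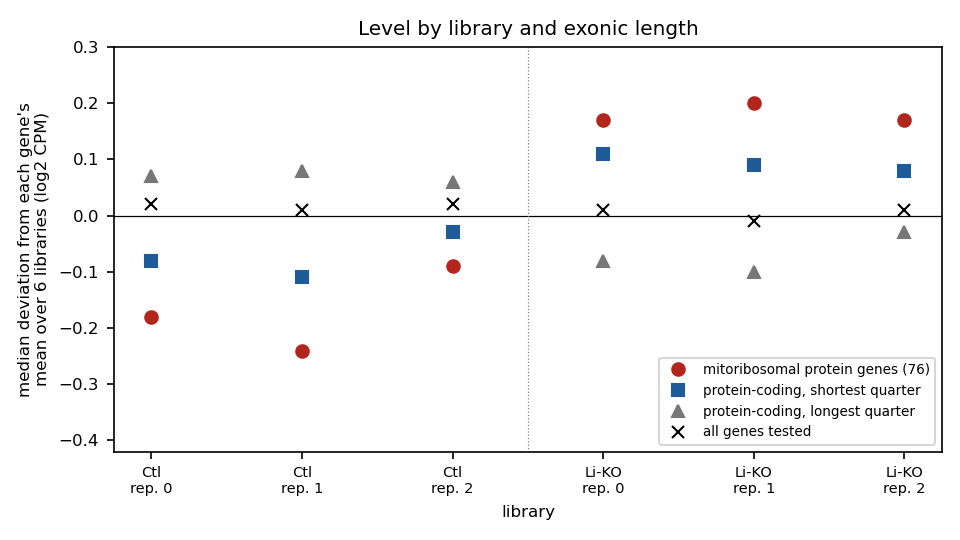
Median log2 CPM deviation from each gene's mean over the 6 libraries (vertical axis) in each library (horizontal axis), for the 76 members (circles), the shortest and longest 25% of protein-coding genes by exonic length (squares and triangles) and all genes tested (crosses). Members lie below 0 in the 3 Ctl libraries and above 0 in the 3 Li-KO libraries, the short class follows with smaller deviations, and the long class goes the other way.

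Lists of genes that work with the mitochondrial ribosome are given beside the 6.11% of all genes that were higher and the 5.9% that were lower. Of 5 mitoribosomal proteins with other symbols, 0 passed, and the median log2 fold change was 0.37. Aurkaip1 (0.40 ± 0.12, edgeR adjusted p = 0.0575), Chchd1 (0.41), Dap3, a GTP-binding small subunit protein (0.37), and Ptcd3 (0.24) were above 0, and Gadd45gip1 was at -0.06. Among 26 factors of ribosome assembly and ribosomal RNA modification, 5 rose and 0 fell, with a median of 0.23. They were Mtg1, a GTPase of large subunit assembly (0.54 ± 0.14), the RNA helicase Dhx30 (0.53 ± 0.14), the ribosomal RNA methyltransferases Mrm2 (0.61 ± 0.17) and Mrm3 (0.71 ± 0.19), and Mterf4 (0.50 ± 0.14), with edgeR adjusted p between 0.0423 and 0.0493. Mtg1 stayed past the threshold in 0 and each of the other 4 in 1 of the 6 fits without 1 library.

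Of 16 tested genes listed with the mitochondrial translation factors, 1 was higher and 0 lower, with a median of 0.21. Of 17 mitochondrial aminoacyl-tRNA synthetases, 1 was higher and 0 lower, with a median of 0.14. Both shares were near that over all genes. The gene of the first list was Oxa1l, which binds the ribosome at the tunnel exit and inserts new proteins into the inner membrane. It is not itself an initiation, elongation or release factor. Oxa1l had Ctl CPM of 43.1, 38.5 and 38.7 against Li-KO CPM of 58.6, 56.5 and 53.7 (0.49 ± 0.11, edgeR adjusted p = 0.0298). It was past the threshold in 2 of the 6 fits without 1 library. The elongation factor Tufm had 0.39 ± 0.16 and did not pass. The synthetase was Fars2, which charges the phenylalanine tRNA, with Ctl CPM of 34.5, 29.8 and 33.2 against Li-KO CPM of 61.7, 52.7 and 50.7 (0.76 ± 0.13, adjusted p = 0.0111), past the threshold in 5 of the 6 fits without 1 library.

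Of 20 genes of mitochondrial transcription and its nuclear regulators, 1 was higher and 2 lower, with a median of 0.01, which is near the shares over all genes (6.11% higher and 5.9% lower). Esrra, an orphan nuclear receptor of oxidative metabolism, had Ctl CPM of 40.7, 39.8 and 36.6 against Li-KO CPM of 89.5, 74.7 and 70 (log2 fold change 1 ± 0.13, edgeR adjusted p = 0.00446). It stayed past the threshold in all 6 fits without 1 library. Its coactivator gene Ppargc1b was lower, with Ctl CPM of 18.4, 17.4 and 12.1 against Li-KO CPM of 9.18, 7.96 and 6.83 (-1 ± 0.21, adjusted p = 0.0210). Yy1, the gene of a zinc finger factor whose motif is counted above, was lower, with Ctl CPM of 53.0, 52.3 and 60.2 against Li-KO CPM of 26.4, 31.9 and 44.1 (-0.69 ± 0.19, adjusted p = 0.0471). Ppargc1b stayed past the threshold in 3 and Yy1 in 1 of the 6 fits without 1 library. Ppargc1a, a coactivator gene of mitochondrial biogenesis, had Ctl CPM of 38.4, 20 and 16.9 against Li-KO CPM of 91.7, 35.9 and 53.7, overlapping between groups (1.27 ± 0.39, adjusted p = 0.0678 in edgeR). Among the genes of other factors that read the searched motifs, Nrf1 and the ETS factor gene Gabpa had 0.17 ± 0.15 and -0.33 ± 0.11 and did not pass. Gabpa had Ctl CPM of 98.4, 97.3 and 106 against Li-KO CPM of 76.5, 78.9 and 84.8, without overlap (edgeR adjusted p = 0.0784). Gabpb1 of the same list was likewise lower without overlap (-0.52 ± 0.16, edgeR adjusted p = 0.0729). Of the 20 genes, 5 were lower and 4 higher without overlap, beside 17.8% and 17.4% of all genes.

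Genes with symbols of the cytoplasmic ribosome and of respiratory complex I were compared in the same way. Of 75 cytoplasmic ribosomal protein genes tested, 29 were higher and 0 lower (6.11% and 5.9% over all genes), with a median log2 fold change of 0.48. Among them were Rpl22l1 (1.5 ± 0.19), Rps21 (1.27 ± 0.16), Rps7 (1.77 ± 0.25) and Rpl26 (1.06 ± 0.16). The list was taken by symbol and includes genes of like names such as Rpl22l1 and Rpl7l1. Some counts were low: Rps7 had 115, 80 and 66 fragments in Ctl, and Rps6, Rpl38 and Rpl23a failed the filter. Copies of these genes were not searched for, so their levels are uncertain. Of 37 nuclear genes with symbols of respiratory complex I, which holds products of mitochondrial translation, 21 were higher and 0 lower, with a median of 0.49. They were taken by symbol and not by place in the complex, so Ndufa4, among the 21, and Ndufa4l2 are included. Ndufv1 (0.83 ± 0.12), Ndufs5 (1.23 ± 0.18), Ndufa7 (0.71 ± 0.11) and Ndufa2 (0.79 ± 0.13) had the smallest p. The members' median of 0.36 lay below both. Whether the lists differ was not tested.

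**Figure D5:**
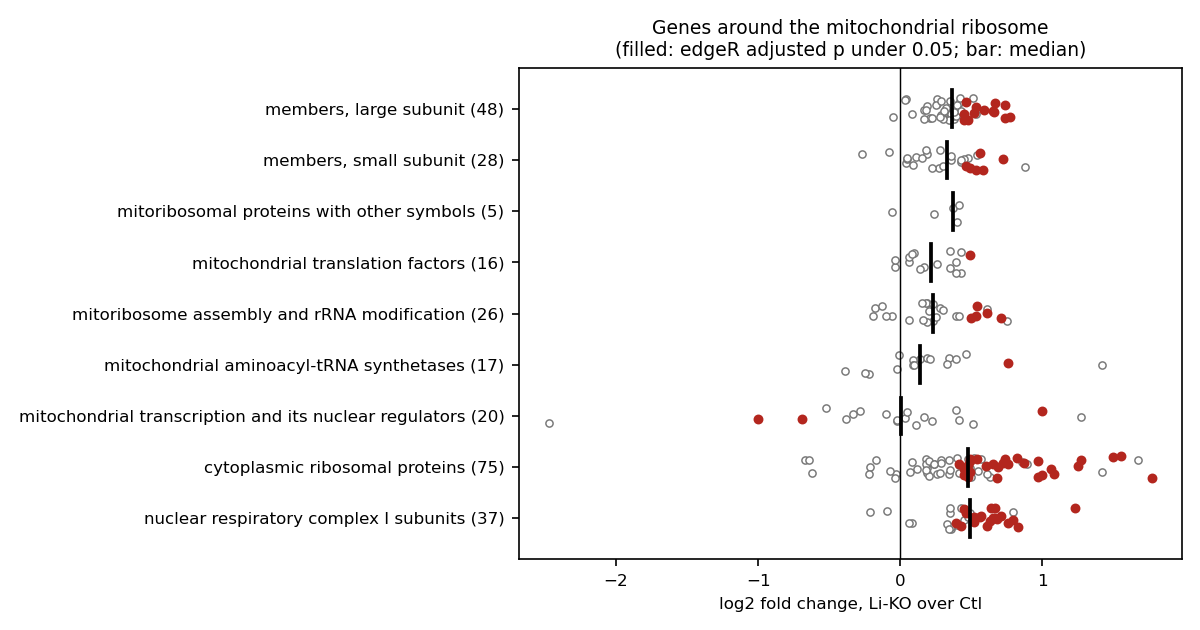
Log2 fold change (horizontal axis) of each gene tested in the members' 2 subunits and in 7 related lists, with the number of genes tested in brackets; filled points passed an edgeR adjusted p under 0.05 and the bar is the median. Medians lie between 0.01 for the transcription regulators and 0.49 for the genes with complex I symbols.

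The RNA partners of these proteins are not measured by this table. Both mitochondrial ribosomal RNAs were listed at 0 fragments in all 6 libraries, and with them 11 of the 15 mitochondrially encoded ribosomal RNA and protein genes and all 22 mitochondrial tRNAs. The most that any mitochondrially encoded gene had was 103 fragments in a library, for mt-Nd2. Since these RNAs are abundant in every liver cell, a listing at 0 gives no level, and no comparison was made between the ribosomal proteins and their RNAs or products.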

How the data were processed

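Liver RNA of 3 Ctl and 3 Li-KO mouse libraries was sequenced by the authors on an Illumina GAIIx after a stranded total RNA preparation, per the labels' protocols. Per the submitters' processing notes, STAR, Cufflinks and Cuffdiff were used with mm10. No source used here gives their versions, the annotation or whether strand was used in counting. The deposited table holds, per the file headers, estimated counts of raw fragments that are not normalized (3.29% of values were not whole) and FPKM. The deposited FPKM are scaled to length and depth by the authors. Genes that Cuffdiff skipped in some library (77, 0 of them members) were left out.

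Gene IDs were matched to symbols (48051 of 48432) and to GENCODE M21 positions. Estimated counts were rounded, filtered with filterByExpr (minimum count 10, minimum total 15), scaled by TMM and tested with the quasi-likelihood test of edgeR 4.0.16 (R 4.3.3) over all 16533 genes. P-values were two-sided and adjusted by Benjamini-Hochberg, and a gene was called at an adjusted p under 0.05. Each SE was derived from the F statistic of its log2 fold change. The procedure was tested on simulated data. Replicate libraries differed by far more than sampling noise.

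Copies of members were found with BLAST 2.17.0 (coding sequences against M21 transcripts, at least 90% identity over at least 70%). Alternatives were DESeq2 1.42.0, limma 3.58.1 on log2(FPKM + 0.1) and log2(FPKM + 1), RLE scaling, library totals alone, no filter, skipped genes kept at 0, a replicate block, each library left out, and, chosen after seeing the data, copies added to their gene and members without a copy.

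The members and all lists were chosen with earlier results of these data known. Genes named with values were all called members, the 4 largest and 4 smallest log2 fold changes, the 4 highest and 4 lowest levels of each subunit, the 3 whose symbol and structure differ, Klf15, and up to 4 called genes with the smallest p per related list. Gm5776, Mrpl23-ps1, mt-Nd2, Mrm2 and the uncalled genes of sites and related lists were named after their values were seen. Marker lists other than those of hepatocytes and erythroid cells are in the closing section.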

Additional observations from a re-analysis of the deposited data

How the results depend on the processing

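The count of 19 members higher and 0 lower ran from 0 to 20 when 1 library was left out (0 without either Ctl replicate 1 or Li-KO replicate 1, 20 without Li-KO replicate 2). It was 9 among the members that overlap no other gene, where only 34 were tested. Over all genes 1010 were higher and 976 lower, against 198 to 1102 and 234 to 1447 without 1 library, 1603 and 1555 by DESeq2, 584 and 596 by limma on log2(FPKM + 0.1) and 543 and 572 on log2(FPKM + 1). All 19 stayed called by DESeq2, with RLE scaling and with skipped genes kept at 0, 17 with library totals alone, 15 with no filter, and 13 and 12 with limma on log2(FPKM + 0.1) and log2(FPKM + 1). The median log2 fold change of the members lay between 0.34 and 0.39 in all of these. The large minus small difference of 0.05 ran from 0.04 to 0.07 without 1 library and was 0.23 with the median of log2(FPKM + 0.1). The cause was not tested. Of the related lists, 58 genes were higher and 2 lower, and the counts ran from 10 to 42 and from 0 to 3 without 1 library. With a replicate block, 15 members were higher and 0 lower, with a median of 0.36. The numbers are not known to pair mice, and the correlations of same-numbered libraries were 0.018, 0.081 and 0.067. Mrpl23, Mrps36 and Mrps33 had the fewest fragments of the members, and all 3 have near-identical copies.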

Other observations

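Mitochondrial ribosomal protein genes often start close to a neighbour on the opposite strand. Of the 78 members, 18 (23.1%) had a protein-coding neighbour starting within 1000 bases in head-to-head orientation, beside 9.73% of the 13269 protein-coding genes tested. Mrpl49 starts 59 bases from Fau, whose product is a precursor of a cytoplasmic ribosomal protein, and Mrps12 starts 172 bases from Sars2, a mitochondrial seryl-tRNA synthetase. Of the 17 neighbours tested, 1 was higher and 0 lower in Li-KO by edgeR, beside 6.11% and 5.9% of all genes tested. Their median log2 fold change was 0.29, and 14 were above 0, beside 49.2% of all genes tested. The gene that passed was Cyb5rl, beside Mrpl37, at 0.65 (edgeR adjusted p = 0.0296). For Mrps27, the member with the lowest log2 fold change, the neighbour Ptcd2 was at 0.22, while Mrps18b at -0.08 had Ppp1r10 at -0.18.

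Pseudogene copies of the members were counted at levels that differed from gene to gene. Gm6419, a copy of Mrpl42, had 167, 138 and 139 fragments in Ctl and 235, 216 and 319 in Li-KO. Gm15946, a copy of Mrps18c, had 115, 101 and 128 fragments in Ctl and 35, 47 and 121 in Li-KO. These counts are not scaled for depth. With copies added to their gene, 20 of 78 members were higher.

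Marker sums of the remaining cell types overlapped between groups. They ran from 336 to 476 CPM in Ctl and 304 to 453 CPM in Li-KO for Kupffer cells, from 604 to 682 and 489 to 786 for sinusoidal endothelium, and from 640 to 722 and 596 to 742 for stellate cells and fibroblasts. Cholangiocyte markers summed to 33.7 to 63.2 CPM in Ctl and 48.0 to 152 CPM in Li-KO, lymphocyte markers to 1.5 to 2.02 and 0.973 to 5.26, and neutrophil markers to 1.90 to 4.29 and 1.73 to 3.29. Tdo2 of hepatocytes, Rgs5 of stellate cells and Sox9 of cholangiocytes were the 3 markers called, each lower in Li-KO. They do not stand for their lists. The median log2 fold change was 0.22 over the 9 hepatocyte markers tested and 0.79 over the 6 of cholangiocytes. It was -0.0 over the 8 of stellate cells and fibroblasts. The part of these cell types in the members' shift was not tested.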
